A study of Mus musculus with 12 samples.

Results

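Bone marrow-derived macrophages of C57BL/6 mice were preincubated with HDL or with cyclodextrin and then given LPS, and the cyclodextrin arrays were compared directly with the HDL arrays. The 6 arrays were chosen by their titles: 3 of cells that had been in 4% cyclodextrin for 4 h and 3 of cells that had been in 300 ug/ml HDL for 24 h, out of 12 arrays in the whole series. Both groups were washed and stimulated with 10 ng/ml LPS for 6 h. The other 6 arrays held 3 of cells given PBS and the same LPS and 3 of cells given PBS without LPS, and they served as reference levels and for the estimate of the spread. Arrays are named by the RNA number of the labels, with PBS arrays 1, 2 and 3 without LPS and PBS arrays 7, 8 and 9 with it. The mice were 9 to 16 weeks old and the marrow had been differentiated for 8 to 9 days in medium with 20% L929-conditioned medium, in all groups alike. The labels call the lipoprotein nHDL without spelling out the n, give neither its source nor the type of cyclodextrin, and do not give how long the PBS cells were in contact with PBS. Agent and contact time change together, so that their parts in any difference cannot be told apart. The labels do not say whether the 3 arrays of a group came from separate mice or cultures, and they carry the same replicate number, so that the p-values measure the spread between these arrays, which may be technical.

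Cholesterol sits in the plasma membrane, where it is thought to help hold Toll-like receptors and their partners in ordered patches. HDL takes up cholesterol that macrophages export through the transporters ABCA1 and ABCG1 and can also bring lipids to the cell, whereas cyclodextrins are rings of glucose units that draw cholesterol straight out of the membrane. Cells sense a fall in membrane cholesterol through SREBP-2, which switches on sterol synthesis, while SREBP-1 and LXR drive fatty acid synthesis and desaturation. LPS acts through TLR4 on NF-kB and interferon genes, and it also slows the division of cultured macrophages. Comparing the 2 agents asks which genes of LPS-treated macrophages differ between these 2 preincubations.

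Of 9795 genes measured, 92 (0.939%) were higher and 110 (1.12%) were lower after cyclodextrin than after HDL, that is 202 genes in all (2.06%). A gene is named as higher or lower when the Benjamini-Hochberg adjusted p of limma's moderated test, taken over 18364 probes, was under 0.05, which 338 probes reached (1.84%). Few of these differences were large, since 13 of the higher and 17 of the lower genes differed at least 2-fold (0.306% of all genes). The gene that differed most was Scd1, a fatty acid desaturase. Some genes of lipid desaturation and of glutathione supply were among the higher ones, and some genes of DNA replication, cell division and dendritic-type activation among the lower ones. No gene of the lists of inflammatory cytokines and of interferon-stimulated genes reached the threshold in the same comparison. Values below are normalized signals on the log2 scale, given for HDL arrays 16, 17 and 18 and then for cyclodextrin arrays 22, 23 and 24, and a difference is always cyclodextrin minus HDL with the standard error of the fit.

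The arrays gave signals of like depth, and all 12 macrophage markers with a probe, such as Csf1r, Adgre1 and Itgam, were above background on every HDL and cyclodextrin array. Correlations between 2 arrays of the same group were 0.992 to 0.995 for HDL and 0.992 to 0.994 for cyclodextrin, against 0.985 to 0.992 between a cyclodextrin and an HDL array. The share of all 45281 probes detected at p under 0.05 was 34.3% ± 0.963 (SD, n = 3) after cyclodextrin and 36.0% ± 0.173 (n = 3) after HDL. The groups did not overlap, and the exact two-sided permutation test gave p = 0.1, the smallest p that 3 arrays against 3 allow. The 3 cyclodextrin arrays thus lay lower in detected probes, and 20 of the 110 lower genes were not above background on any cyclodextrin array, whereas 8 of the 92 higher genes were so on the HDL arrays. The part of the detected share in these calls was not tested, and 78 of the lower and 78 of the higher genes were above background on all 6 arrays. In these 6 arrays, 2388 genes (24.4%) had groups that did not overlap, so that a lack of overlap alone says little about a gene. All 92 higher and all 110 lower genes were among them, so that a lack of overlap sets none of these genes apart.

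**Figure D1:**
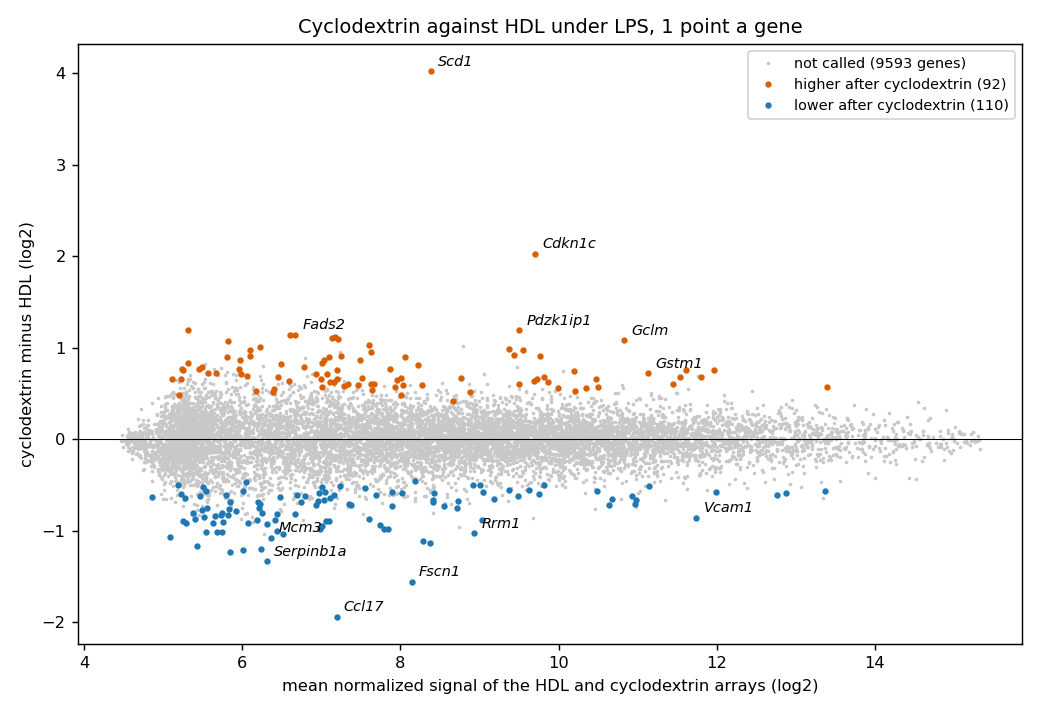
The difference between cyclodextrin and HDL (vertical axis, log2) is plotted against the mean normalized signal of the 6 arrays (horizontal axis, log2), with 1 point a gene. Orange points are the 92 genes higher after cyclodextrin, blue points the 110 lower ones and grey points the genes that did not reach the threshold, and Scd1 stands apart at a difference of 4.02.

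The higher genes fell on both sides of the LPS response. LPS alone, in PBS cells, changed 59.4% of all genes, raising 21.8% and lowering 37.6%, and this comparison shares no array with the one between cyclodextrin and HDL. Of the 92 genes higher after cyclodextrin, 29 (31.5%) were raised and 36 (39.1%) were lowered by LPS. Of the 110 lower genes, 36 (32.7%) were raised and 53 (48.2%) were lowered by LPS. The mean of the PBS arrays with LPS lay between those of cyclodextrin and HDL for 66 of the higher and 81 of the lower genes. It lay below both for 21 higher and 4 lower genes, and above both for 5 higher and 25 lower genes. These genes were chosen by a gap between cyclodextrin and HDL, which by itself favours a PBS mean within that gap. The share over all genes was not computed, and nothing is read from these counts. Against those same 3 PBS arrays, 421 genes (4.3%) differed after cyclodextrin, with 1.97% higher and 2.33% lower, and 98 (1%) after HDL, with 0.429% higher and 0.572% lower. As both comparisons use the same PBS arrays, their values are given side by side for each gene and no overlap between them is read.

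**Figure D2:**
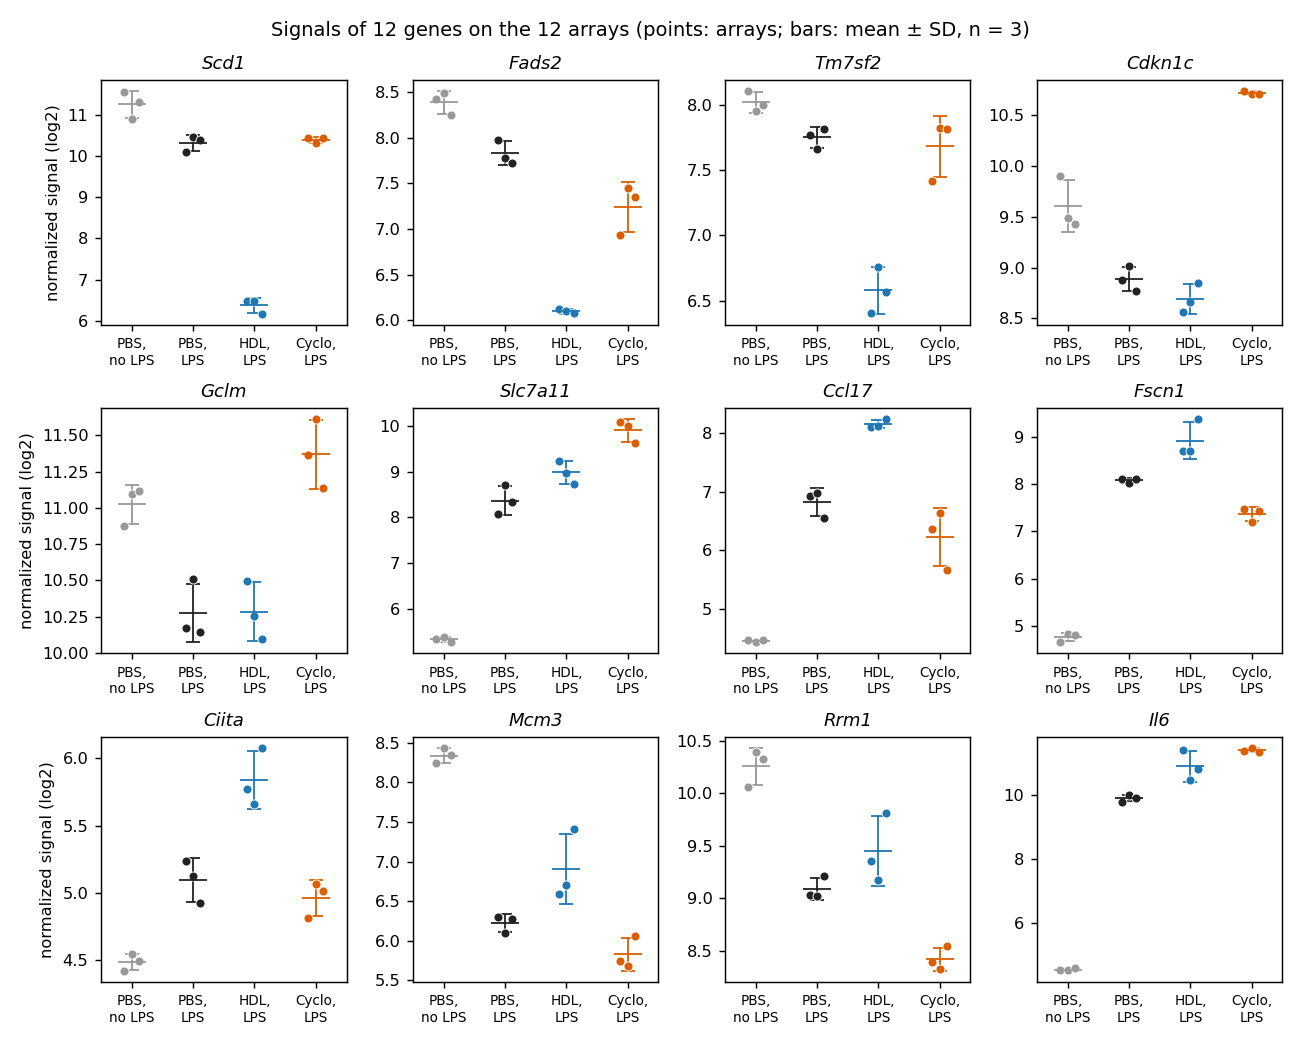
Normalized signals (vertical axes, log2) of 12 genes on the 12 arrays, with 1 point an array and the mean ± SD of the 3 arrays of each group. From left to right, the groups are PBS without LPS and then, with LPS, PBS, HDL and cyclodextrin. Scd1, Fads2 and Tm7sf2 were lowest on the HDL arrays, Cdkn1c was highest on the cyclodextrin arrays, and Ccl17, Fscn1 and Ciita were highest on the HDL arrays.

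The largest single difference was that of Scd1. Its product, stearoyl-CoA desaturase 1, makes oleate and palmitoleate from saturated fatty acids. The Scd1 signals were 6.48, 6.47 and 6.17 on the HDL arrays and 10.43, 10.32 and 10.43 on the cyclodextrin arrays. The 2 groups lay far apart, and the PBS arrays with LPS, at 10.10, 10.46 and 10.40, lay with the cyclodextrin arrays. The difference was 4.02 ± 0.16, or 16.2-fold (adjusted p = 6.93e-09, limma). Against PBS with LPS, Scd1 gave -3.94 after HDL (adjusted p = 8.99e-09) and 0.07 after cyclodextrin (adjusted p = 0.865). The Scd1 difference stayed between 3.23 and 4.10 in every processing that kept its probe, and it has no value without the values placed from other arrays. The deposited Scd1 signals had lost their decimal mark on all of these arrays but cyclodextrin array 22. The mark was placed by detection p on HDL arrays 17 and 18 and cyclodextrin array 23, by the curve of the array on HDL array 16 and from other arrays on cyclodextrin array 24, and a mark placed wrong would move a signal 10-fold.

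Fads2, the desaturase that starts the making of long polyunsaturated fatty acids, read 6.13, 6.10 and 6.08 after HDL and 6.93, 7.45 and 7.35 after cyclodextrin. The groups did not overlap, and both lay under the PBS arrays with LPS, at 7.98, 7.78 and 7.73. The difference was 1.14 ± 0.14 (2.21-fold, adjusted p = 0.00102), while a second, dimmer probe of Fads2 gave 0.01. Tm7sf2, a sterol reductase of cholesterol synthesis, read 6.40, 6.76 and 6.57 after HDL and 7.41, 7.82 and 7.81 after cyclodextrin, again with no overlap. It was 1.11 ± 0.13 higher after cyclodextrin (2.15-fold, adjusted p = 0.00102), with -1.17 for HDL against PBS and -0.07 for cyclodextrin against PBS. Acss2, which makes acetyl-CoA from acetate in the cytosol, read 7.73, 7.46 and 7.28 after HDL and 8.39, 8.42 and 7.95 after cyclodextrin. It was 0.76 ± 0.16 higher after cyclodextrin (adjusted p = 0.0244), and leaving out HDL array 17 or 18 or cyclodextrin array 22 or 23 ended that call (adjusted p = 0.0608, 0.0977, 0.0764 and 0.0869).

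Of 14 measured genes of fatty acid synthesis and desaturation, those 3 (Scd1, Fads2 and Acss2) were higher and none was lower after cyclodextrin. Of all genes, 0.939% were higher and 1.12% lower. The 14 had a median difference of 0.17, against 0.01 over all genes. Among those that did not reach the threshold, Acsl3, which activates fatty acids, gave 0.51 (adjusted p = 0.093) and Elovl6, an elongase of saturated fatty acids, gave -0.31 (adjusted p = 0.332). Against PBS with LPS, 7 of the 14 genes were lower after HDL and 3 were lower after cyclodextrin. Those shares over all genes were 0.572% and 2.33%. Of 15 measured genes of sterol synthesis, Tm7sf2 alone was higher, although 14 of the 15 differences had a positive sign and the median was 0.20. LPS alone lowered 13 of these 15 genes, against 37.6% of all genes. Fdps, farnesyl diphosphate synthase, gave 0.33 (95% interval 0.08 to 0.58, adjusted p = 0.153). The regulators showed no difference past the threshold: Srebf1 gave 0.07 (95% interval -0.29 to 0.43) and Srebf2 gave -0.03 (-0.33 to 0.28). Insig1, which holds SREBP in the endoplasmic reticulum when sterols are plentiful, gave 0.52 (0.20 to 0.85, adjusted p = 0.0953) and passed with array weights (adjusted p = 0.032).

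The list of LXR targets, efflux and storage had 11 measured members. Of these, 1 was lower after cyclodextrin and none was higher, against 1.12% and 0.939% of all genes. The lower one was Ch25h, which was listed there as the enzyme that makes 25-hydroxycholesterol. LPS alone raised Ch25h by 6.70 in PBS cells. Ch25h read 13.01, 12.98 and 13.22 after HDL and 12.31, 12.52 and 12.54 after cyclodextrin, and the difference was -0.61 ± 0.14 (adjusted p = 0.0366). Its call ended on leaving out any 1 array of the HDL, cyclodextrin or PBS groups with LPS, with adjusted p between 0.0508 and 0.134. Abcg1, the transporter that passes cholesterol to HDL, gave 0.08 (95% interval -0.30 to 0.47) between the 2 treatments, with -0.84 for HDL and -0.76 for cyclodextrin against PBS (adjusted p = 0.0468 and 0.0317). Apoe, the apolipoprotein that macrophages secrete with cholesterol, gave 0.49 (0.23 to 0.75, adjusted p = 0.0553) and Nr1h3, which encodes LXR alpha, gave -0.53 (-0.80 to -0.25, adjusted p = 0.0542).

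Some antioxidant genes that NRF2 drives were higher after cyclodextrin. NRF2 is a transcription factor that oxidants and electrophiles release from its inhibitor KEAP1 and that binds antioxidant response elements. Of 18 measured NRF2 genes, Gclm, Slc7a11, Gstm1 and Gsta3 were higher and none was lower, with a median of 0.21. Over all genes, 0.939% were higher and 1.12% lower. Gclm, the modifier subunit of the enzyme that limits glutathione synthesis, read 10.50, 10.26 and 10.10 after HDL and 11.36, 11.61 and 11.13 after cyclodextrin, with no overlap. The difference was 1.08 ± 0.15 (2.12-fold, adjusted p = 0.00324), with 1.09 for cyclodextrin against PBS and 0.01 for HDL against PBS. Slc7a11, the cystine carrier that feeds glutathione synthesis, read 9.24, 8.97 and 8.74 after HDL and 10.08, 10.00 and 9.62 after cyclodextrin. It was 0.92 ± 0.17 higher (1.89-fold, adjusted p = 0.0166), and 3 of its 4 probes passed the threshold in this direction.

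Gstm1 and Gsta3 encode enzymes that join glutathione to foreign compounds. Gstm1 was 0.72 ± 0.10 higher (adjusted p = 0.00231), but its second probe gave -0.16 and the mean of its probes did not pass (0.28, adjusted p = 0.246). Gsta3 was 0.59 ± 0.13 higher (adjusted p = 0.0407). Leaving out HDL array 18 or cyclodextrin array 22 or 23 ended the call of Slc7a11 (adjusted p = 0.0748, 0.0574 and 0.0655). That of Gsta3 ended on leaving out PBS array 3, 7, 8 or 9, HDL array 17 or 18 or any cyclodextrin array, with adjusted p up to 0.147. Hmox1, heme oxygenase 1, was uneven within the groups: it read 12.85, 12.87 and 11.29 after HDL and 11.22, 13.04 and 13.12 after cyclodextrin, and its difference of 0.12 had a 95% interval from -0.84 to 1.08. Txnrd1, thioredoxin reductase, gave 0.60 (0.15 to 1.05, adjusted p = 0.153).

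The stretches of 250 bases before the start of Gclm and Gsta3 are shown because each holds a match to the antioxidant response element, in capitals here. The letters searched were TGACNNNGC on either strand, in RefSeq promoters of the GRCm38.p6 build. All 4 higher NRF2 genes had an entry and 2 of them held a match, against 11.7% of the 7997 measured genes with an entry and 10.1% of all 27025 promoters. The letters TCACNCCAC, a sterol regulatory element, were in the same stretch of 0 of the 3 higher lipid genes with an entry, against 0.85% of the measured genes. The other members of the NRF2 and lipid lists were not counted. A match is a description of the letters and not a binding site. The Gclm stretch lies at chr3:122245307-122245556 on the plus strand and its match is 125 bases from the start, and that of Gsta3 lies at chr1:21240335-21240584 on the plus strand with its match 112 bases from the start.
Gclm: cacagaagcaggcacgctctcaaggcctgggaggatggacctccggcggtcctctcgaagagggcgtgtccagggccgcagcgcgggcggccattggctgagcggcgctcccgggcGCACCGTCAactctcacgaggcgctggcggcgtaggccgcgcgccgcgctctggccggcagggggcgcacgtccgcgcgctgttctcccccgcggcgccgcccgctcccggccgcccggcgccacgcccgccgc
Gsta3: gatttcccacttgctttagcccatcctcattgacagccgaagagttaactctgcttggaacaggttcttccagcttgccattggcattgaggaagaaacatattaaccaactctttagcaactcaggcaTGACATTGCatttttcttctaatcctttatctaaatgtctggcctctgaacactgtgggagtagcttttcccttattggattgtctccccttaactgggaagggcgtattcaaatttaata

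Amino acid genes gave a mixed picture. Of 17 measured genes under ATF4, the transcription factor of the amino acid response, Phgdh and Asns were higher and none was lower. Their median was 0.01, and over all genes 0.939% were higher and 1.12% lower. Phgdh, which opens serine synthesis, read 6.93, 7.20 and 7.31 after HDL and 7.98, 8.22 and 8.10 after cyclodextrin, with a difference of 0.95 ± 0.18 (adjusted p = 0.0151). Asns, asparagine synthetase, was 0.60 ± 0.12 higher (adjusted p = 0.0218), while its other probes gave 0.36 and 0.48 and did not pass. The Phgdh call ended without HDL array 16 or cyclodextrin array 23 (adjusted p = 0.0616 and 0.0611), and that of Asns without HDL array 17 or 18 or cyclodextrin array 23 (adjusted p = 0.0567, 0.083 and 0.0803). Genes of protein folding in the endoplasmic reticulum had 0 of 16 past limma's threshold in either direction. Of the 16, 10 had an unadjusted p under 0.05, which 1716 of all 9795 genes had. Differences of the 16 ran from -0.86 for Calr (95% interval -1.36 to -0.37, adjusted p = 0.0745) to 0.47 for Dnajb9. Without background correction 5 of the 16 passed, where 310 of all genes did. With the authors' processed values 5 passed as well, where 303 of all genes did. Of 12 heat shock genes 0 passed, also at an unadjusted p under 0.05, with a range from -0.23 to 0.28.

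Some genes of DNA replication and cell division were lower after cyclodextrin. Of 18 measured replication genes 3 (Mcm3, Rrm1 and Mcm7) were lower, of 14 mitosis genes 4 (Top2a, Aurka, Birc5 and Cenpn) and of 10 mitotic kinesins 2 (Kif11 and Kif18b), and in these lists none was higher. Over all genes, 1.12% were lower and 0.939% higher. The median differences of these lists were -0.34, -0.40 and -0.50, against 0.01 over all genes. LPS alone lowered 16 of the 18, 13 of the 14 and all 10 genes of these lists, against 37.6% of all genes. In bulk RNA, fewer dividing cells and less of these RNAs in each cell cannot be told apart.

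Mcm3 and Mcm7 encode subunits of the ring that unwinds DNA at replication forks. Mcm3 read 6.59, 6.71 and 7.41 after HDL and 5.74, 5.68 and 6.06 after cyclodextrin. The groups did not overlap, HDL array 18 was the highest, and the difference was -1.07 ± 0.18 (adjusted p = 0.00986). Mcm7 read 7.48, 7.39 and 7.58 after HDL and 6.85, 6.56 and 6.20 after cyclodextrin, a difference of -0.94 ± 0.16 (adjusted p = 0.00876), while its second probe gave 0.01. Rrm1, the large subunit of the reductase that makes deoxynucleotides, read 9.36, 9.17 and 9.82 after HDL and 8.40, 8.33 and 8.54 after cyclodextrin. Its difference was -1.03 ± 0.16 (adjusted p = 0.00547), and its second probe gave -0.82 and passed too. Pclaf, a small protein that binds the replication clamp, was outside the lists and read 8.86, 8.68 and 8.96 after HDL and 7.57, 7.77 and 7.85 after cyclodextrin. It differed by -1.11 ± 0.13 (2.15-fold, adjusted p = 0.000737), with -0.85 for cyclodextrin and 0.25 for HDL against PBS.

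Top2a, the topoisomerase that untangles chromosomes before division, read 8.81, 8.86 and 9.17 after HDL and 8.19, 7.56 and 7.68 after cyclodextrin. Its difference was -1.14 ± 0.20 (2.20-fold, adjusted p = 0.0116), and its second probe gave -0.05. Kif11, the motor that separates spindle poles, read 5.49, 5.61 and 6.15 after HDL and was not above background on any cyclodextrin array. It was at least 1.25-fold lower, set against the lowest signal detected on each of those arrays. The fitted difference was -0.92 (adjusted p = 0.0147, limma). Aurka, a kinase of spindle assembly, differed by -0.72 ± 0.13 (adjusted p = 0.0136). Birc5, which encodes survivin, gave -0.61 ± 0.14 (adjusted p = 0.0355), Cenpn, a kinetochore protein, -0.47 ± 0.11 (adjusted p = 0.0496) and Kif18b, a kinesin of astral microtubules, was above background on 1 HDL array and on no cyclodextrin array (adjusted p = 0.0221).

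These calls rested in part on single arrays. Leaving out HDL array 18 ended those of Top2a (adjusted p = 0.0545), Kif11 (0.0518), Aurka (0.0591) and Kif18b (0.0873). Aurka was also lost without HDL array 16 (0.0544), and Kif18b without HDL array 16 or cyclodextrin array 23 or 24 (0.0508, 0.0699 and 0.0698). Birc5 was lost on leaving out PBS array 3 or 8 or any 1 HDL or cyclodextrin array (adjusted p up to 0.112), and Cenpn on leaving out PBS array 3, 7, 8 or 9 or any 1 HDL or cyclodextrin array (up to 0.13). With median scaling neither kinesin passed (adjusted p = 0.0546 for Kif11 and 0.131 for Kif18b). Over single arrays left out, the count of lower genes ran from 3 to 6 of the 18 replication genes, from 0 to 5 of the 14 mitosis genes and from 0 to 4 of the 10 kinesins. A fit on the 6 HDL and cyclodextrin arrays alone ended the calls of Mcm3, Mcm7 and Rrm1 (adjusted p = 0.0792, 0.0663 and 0.0544), which no array left out had ended. Other genes of these lists stayed short of the threshold, among them Tk1, thymidine kinase (-0.70, adjusted p = 0.0631), and Cdc20, an activator of the anaphase complex (-0.61, adjusted p = 0.054). Cdt1 and Gins1, which help to license and fire origins, had positive differences of 0.50 and 0.51 that did not pass (adjusted p = 0.0884 and 0.157).

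The promoters of 3 of these genes are shown because each holds several CCAAT boxes, the letters that NF-Y binds and that many cell division genes carry, in capitals here on either strand. Of the 9 genes of the 3 lists that were lower, all had an entry and 8 held at least 1 CCAAT in the 250 bases before the start, while Birc5 held none. The share was 36.6% among the 7997 measured genes with an entry and 34.5% among all 27025 promoters. The genes were chosen after their values were seen, so that no test is given. The other members of the 3 lists were not counted, so that no trait of the lower genes within these lists is read. Top2a (chr11:99024190-99024439, minus strand) held 6 matches between 53 and 222 bases from the start, Mcm3 (chr1:20820313-20820562, minus strand) 3 matches between 27 and 112 bases, and Rrm1 (chr7:102441445-102441694, plus strand) 2 matches at 40 and 86 bases.
Top2a: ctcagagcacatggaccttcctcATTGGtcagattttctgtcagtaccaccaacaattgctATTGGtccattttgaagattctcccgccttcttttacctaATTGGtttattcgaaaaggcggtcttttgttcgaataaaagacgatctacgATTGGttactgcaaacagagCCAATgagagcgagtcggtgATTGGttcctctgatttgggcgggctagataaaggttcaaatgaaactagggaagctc
Mcm3: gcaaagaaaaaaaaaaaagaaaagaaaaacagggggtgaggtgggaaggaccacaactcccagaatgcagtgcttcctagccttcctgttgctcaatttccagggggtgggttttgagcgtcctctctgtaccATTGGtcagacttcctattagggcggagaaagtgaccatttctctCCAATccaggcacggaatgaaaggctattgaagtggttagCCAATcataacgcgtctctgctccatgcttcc
Rrm1: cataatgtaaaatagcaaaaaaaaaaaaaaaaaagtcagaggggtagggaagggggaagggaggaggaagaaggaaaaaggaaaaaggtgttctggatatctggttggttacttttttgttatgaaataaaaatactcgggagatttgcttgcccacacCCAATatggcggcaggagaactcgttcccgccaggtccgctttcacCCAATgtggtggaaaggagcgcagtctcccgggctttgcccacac

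The cyclin-dependent kinase inhibitor Cdkn1c, also called p57, moved the other way. It binds cyclin kinases in the phase before DNA synthesis and is an imprinted gene. Its signals were 8.56, 8.67 and 8.85 after HDL and 10.74, 10.71 and 10.71 after cyclodextrin. The cyclodextrin arrays lay close together and far above all others, including PBS with LPS at 8.88, 9.01 and 8.77. The difference was 2.02 ± 0.14 (4.07-fold, adjusted p = 4.29e-06), with 1.83 for cyclodextrin and -0.19 for HDL against PBS (adjusted p = 1.64e-05 and 0.512). It was the only one of 16 measured growth arrest and cyclin genes past the threshold. Cdkn1a, which encodes the inhibitor p21, gave 0.05, Ccnd2, a cyclin, gave -0.54 and Cdkn2a gave -0.78, and none of those passed.

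**Figure D3:**
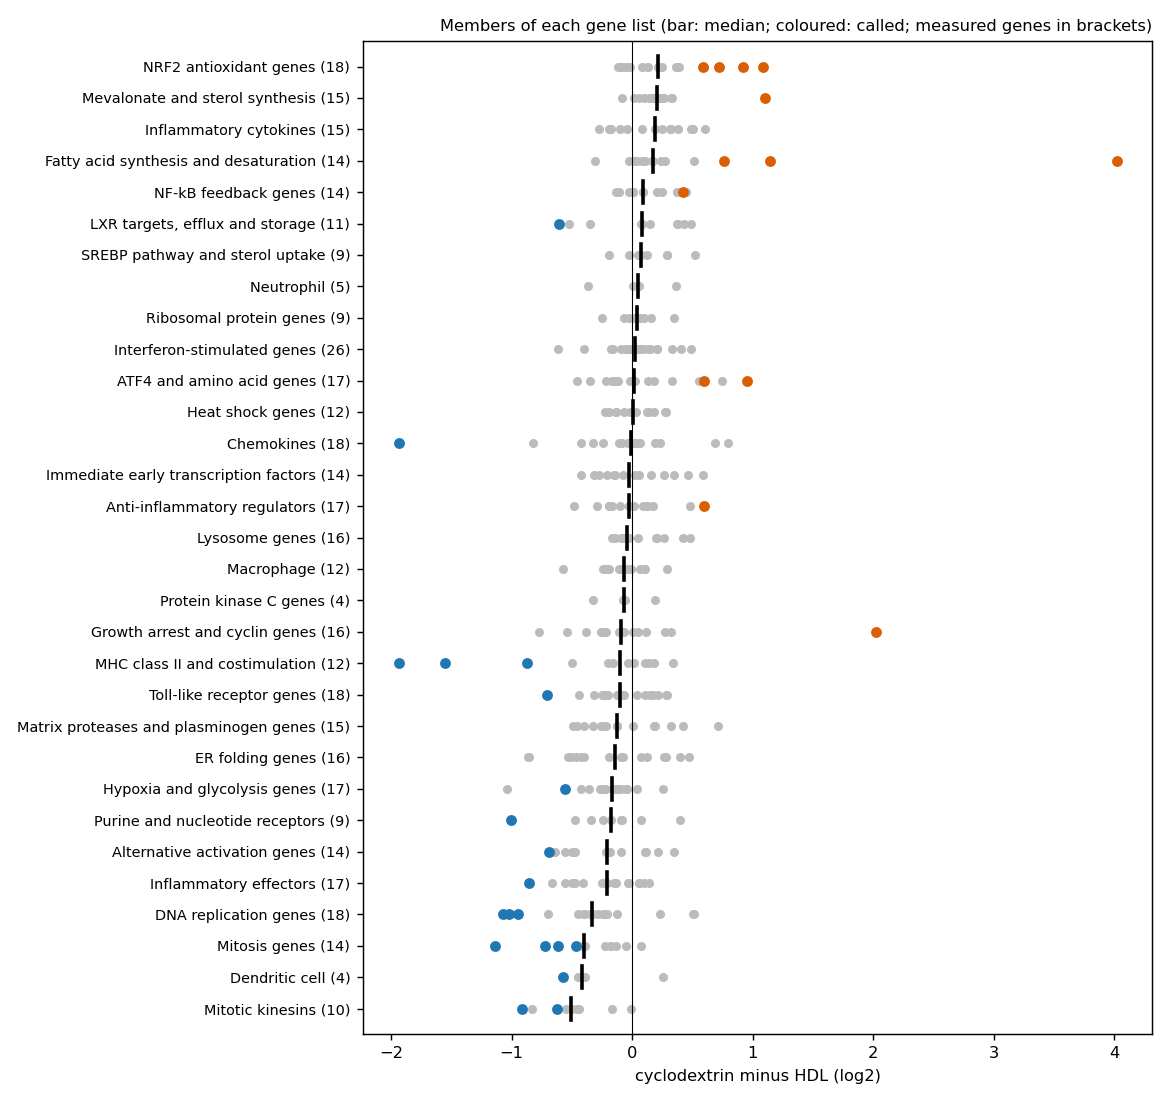
Differences between cyclodextrin and HDL (horizontal axis, log2) of the measured members of each gene or marker list with at least 4 of them, with 1 point a gene, a black bar at the list's median and the number measured in brackets. Orange points are members higher and blue points members lower after cyclodextrin, and the medians run from -0.50 for mitotic kinesins to 0.21 for NRF2 genes.

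Ccl17 and Fscn1, genes of dendritic-type activation, were lower after cyclodextrin, with PBS between the treatments. Ccl17, a chemokine that dendritic cells and alternatively activated macrophages make, read 8.11, 8.14 and 8.24 after HDL and 6.37, 6.64 and 5.67 after cyclodextrin. The groups were well apart, with PBS and LPS between them at 6.94, 6.99 and 6.55. The difference was -1.94 ± 0.20 (3.83-fold, adjusted p = 0.0003), with 1.34 for HDL and -0.60 for cyclodextrin against PBS (adjusted p = 0.00628 and 0.109). Fscn1, fascin, which bundles actin in the processes of mature dendritic cells, read 8.70, 8.70 and 9.38 after HDL and 7.48, 7.20 and 7.42 after cyclodextrin. Its difference was -1.55 ± 0.16 (2.94-fold, adjusted p = 0.000376), with 0.84 for HDL and -0.71 for cyclodextrin against PBS (adjusted p = 0.0282 and 0.0261). Both kept their call in every processing in which they had a value, Ccl17 having none without the values placed from other arrays.

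Ciita, the master activator of MHC class II genes, read 5.77, 5.66 and 6.08 after HDL and was not above background on any cyclodextrin array nor on the PBS arrays with LPS. It was at least 1.32-fold lower after cyclodextrin. The fitted difference was -0.87 (adjusted p = 0.0055, limma), and the fit on the 6 arrays alone ended the call (adjusted p = 0.0526). Of 12 measured genes of MHC class II and costimulation, Ccl17 and Fscn1 were lower and none was higher, against 1.12% and 0.939% of all genes. Ciita was lower too, but it passed the filter on detection only through the HDL arrays, where it is high. Its call therefore adds nothing to that count. Of the class II chains, H2-Ab1 gave 0.10 (95% interval -0.21 to 0.41) and H2-Aa gave 0.34 (-0.01 to 0.69). The costimulatory gene Cd80 gave -0.50 (-0.90 to -0.10, adjusted p = 0.181) and Cd40 gave 0.14 (-0.07 to 0.35).

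Dendritic cell markers were low throughout. Of 8 with a probe, Flt3, Zbtb46, Xcr1 and Cd209a were among 5 not above background on any of the 6 arrays. Clec9a was above background on 3 HDL arrays and 0 cyclodextrin arrays, and Itgax on 3 and 2, and neither reached the threshold. Of the 4 measured over the series, Batf3 was lower after cyclodextrin (-0.57 ± 0.13, adjusted p = 0.0454), a call that ended on leaving out any 1 array but PBS array 1 and HDL array 17, with adjusted p up to 0.162. The summed linear signal of those 4 was 206 to 224 on the HDL arrays and 147 to 180 on the cyclodextrin arrays. That sum takes in signals at background, as of Siglech and of Clec9a on the cyclodextrin arrays, and nothing is read from it. Of the 4, 3 had a negative difference, and Siglech, with a positive one (0.26, adjusted p = 0.421), was not above background on any of the 6 arrays. The part of these markers in the values of Ccl17, Fscn1 and Ciita was not tested. Among other markers, Dcn, a proteoglycan of fibroblasts, was not above background on any cyclodextrin array and was at least 1.27-fold lower there. Its fitted difference was -0.81 (adjusted p = 0.0214, limma). Col1a1, Col1a2, Col3a1 and Lum were not above background on any of the 6 arrays. Lox, above background on all 6, gave 0.13 (adjusted p = 0.705). Pf4, a platelet chemokine that macrophages also express, differed by -0.59 ± 0.14 (adjusted p = 0.0441), with Itga2b, Gp9 and Gp1bb not above background and Ppbp above it on 2 HDL arrays and no cyclodextrin array. Of the 12 macrophage markers 0 passed by limma and 1 had an unadjusted p under 0.05, which was Itgam with -0.57 (adjusted p = 0.0607). T and B markers gave no call, and 6 of 7 T and NK markers were not above background on any of the 6 arrays. The Dcn call ended without HDL array 16 or 18 or cyclodextrin array 23 or 24 (adjusted p = 0.0773, 0.0834, 0.0655 and 0.0698), and that of Pf4 on leaving out PBS array 3, 7, 8 or 9 or any 1 HDL or cyclodextrin array (up to 0.128).

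None of the listed inflammatory cytokines passed the threshold, while Il19, which is not on that list, did. Of 15 measured inflammatory cytokines 0 were higher or lower between cyclodextrin and HDL by limma, and 6 had an unadjusted p under 0.05, which 1716 of the 9795 genes had. Tnf read 14.33, 14.17 and 14.32 after HDL and 14.57, 14.52 and 14.48 after cyclodextrin, and its difference of 0.25 had a 95% interval of -0.10 to 0.59 (adjusted p = 0.458). Il1b read 14.78, 14.74 and 14.63 after HDL and 14.61, 14.61 and 14.36 after cyclodextrin, with -0.19 (-0.50 to 0.12, adjusted p = 0.534). The groups did not overlap for either gene, as for 24.4% of all genes. Il10, the main anti-inflammatory cytokine, gave -0.03 (-0.37 to 0.32).

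Il6 read 11.43, 10.47 and 10.82 after HDL and 11.39, 11.49 and 11.36 after cyclodextrin. HDL array 16 lay with the cyclodextrin arrays and the others lay lower. The difference was 0.51 (95% interval 0.12 to 0.89, adjusted p = 0.162), and without HDL array 16 it was 0.77 and passed (adjusted p = 0.02). Against PBS with LPS, Il6 was 1.51 higher after cyclodextrin and 1.00 higher after HDL (adjusted p = 0.000489 and 0.0207). Il12a, the p35 subunit of interleukin 12, gave 0.49 (0.12 to 0.86, adjusted p = 0.156) between the treatments, with 1.52 and 1.03 against PBS (adjusted p = 0.000329 and 0.0132). Of the 15 cytokines, 8 were higher after cyclodextrin and 4 after HDL against PBS, counts that were not tested against each other. Those shares over all genes were 1.97% and 0.429%.

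Of 26 measured interferon-stimulated genes 0 differed by limma and 5 had an unadjusted p under 0.05, with a median of 0.03. Ifnb1, interferon beta, read 8.19, 8.21 and 7.90 after HDL and 8.49, 8.35 and 8.92 after cyclodextrin, with 0.49 (0.15 to 0.83, adjusted p = 0.124). Irf1, a transcription factor of the interferon response, gave 0.40 (0.14 to 0.67, adjusted p = 0.104) and passed without background correction (0.0391) and with the authors' processed values (0.0472). Of 18 chemokines only Ccl17 passed, and the others ran from -0.82 for Ccl24, an eosinophil attractant (adjusted p = 0.0655), to 0.79 for Cxcl1, a neutrophil attractant (adjusted p = 0.163).

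A few regulators and effectors of inflammation differed. Vcam1, an adhesion molecule that binds integrins of leukocytes, read 12.15, 11.995 and 12.36 after HDL and 11.52, 11.13 and 11.29 after cyclodextrin, with no overlap. It differed by -0.86 ± 0.13 (1.81-fold, adjusted p = 0.0055), with 0.76 for HDL and -0.10 for cyclodextrin against PBS, but its other probes gave -0.23 and -0.15 and the mean of all its probes did not pass (adjusted p = 0.0719). Vcam1 was the only one of 17 inflammatory effector genes past the threshold, and the median of that list was -0.21. Nos2, the inducible nitric oxide synthase, read 11.49, 11.45 and 12.07 after HDL and 11.11, 10.84 and 11.08 after cyclodextrin. Its -0.67 did not pass (95% interval -1.05 to -0.28, adjusted p = 0.0745), but did without background correction (0.0193), with an offset of 50 (0.0258) and with the authors' processed values (0.02).

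Rel, the NF-kB subunit c-Rel, was 0.42 ± 0.10 higher (adjusted p = 0.0482) and alone among 14 NF-kB feedback genes. Socs1, an inhibitor of cytokine and interferon signalling, was 0.60 ± 0.12 higher (adjusted p = 0.026) and alone among 17 anti-inflammatory regulators. Atf3, a repressor of LPS-induced genes, gave -0.29 (95% interval -0.63 to 0.05). The Rel call ended on leaving out PBS array 3, 7, 8 or 9 or any 1 HDL or cyclodextrin array (adjusted p between 0.064 and 0.125), and that of Socs1 without HDL array 17 or 18 or cyclodextrin array 23 or 24 (0.0607, 0.101, 0.0776 and 0.0895).

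Receptors showed single differences. Tlr13, which senses bacterial ribosomal RNA, read 11.29, 11.19 and 11.49 after HDL and 10.79, 10.45 and 10.62 after cyclodextrin, a difference of -0.71 ± 0.13 (adjusted p = 0.0137). It was the only one of 18 Toll-like receptor and adaptor genes past the threshold, and Tlr4, the LPS receptor, gave -0.25 (95% interval -0.58 to 0.07). Adora3, an adenosine receptor, read 6.40, 5.84 and 6.53 after HDL and 5.04, 5.22 and 5.48 after cyclodextrin, where 1 array of 3 was above background. Its difference was -1.01 ± 0.19 (adjusted p = 0.0163), with -1.64 for cyclodextrin and -0.63 for HDL against PBS (adjusted p = 0.000374 and 0.126). Mgl2, a lectin of alternatively activated macrophages, differed by -0.69 ± 0.15 (adjusted p = 0.0327), alone among 14 such genes. Pgk1, a glycolytic enzyme, differed by -0.56 ± 0.10 (adjusted p = 0.0157), alone among 17 hypoxia and glycolysis genes, of which 15 had a negative sign and the median was -0.17, but a second Pgk1 probe gave 0.15.

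Several of these calls ended with 1 array left out. Tlr13 was lost without HDL array 18 or cyclodextrin array 23 (adjusted p = 0.0599 and 0.0572), and Pgk1 without the same arrays (0.0506 and 0.0583). Adora3 was lost without HDL array 16 or 18 or cyclodextrin array 22 or 23 (up to 0.0748), and Mgl2 without HDL array 17 or 18 or any cyclodextrin array (up to 0.125). Of 15 matrix protease, 16 lysosome, 9 ribosomal protein, 14 immediate early and 4 protein kinase C genes, 0 passed in either direction by limma, and 5, 3, 1, 5 and 1 had an unadjusted p under 0.05. Such a p was found for 1716 of all 9795 genes. Prkcb, protein kinase C beta, gave -0.33 (95% interval -0.58 to -0.07, adjusted p = 0.177) and passed as the mean of its probes (-0.46, adjusted p = 0.0443).

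**Figure D4:**
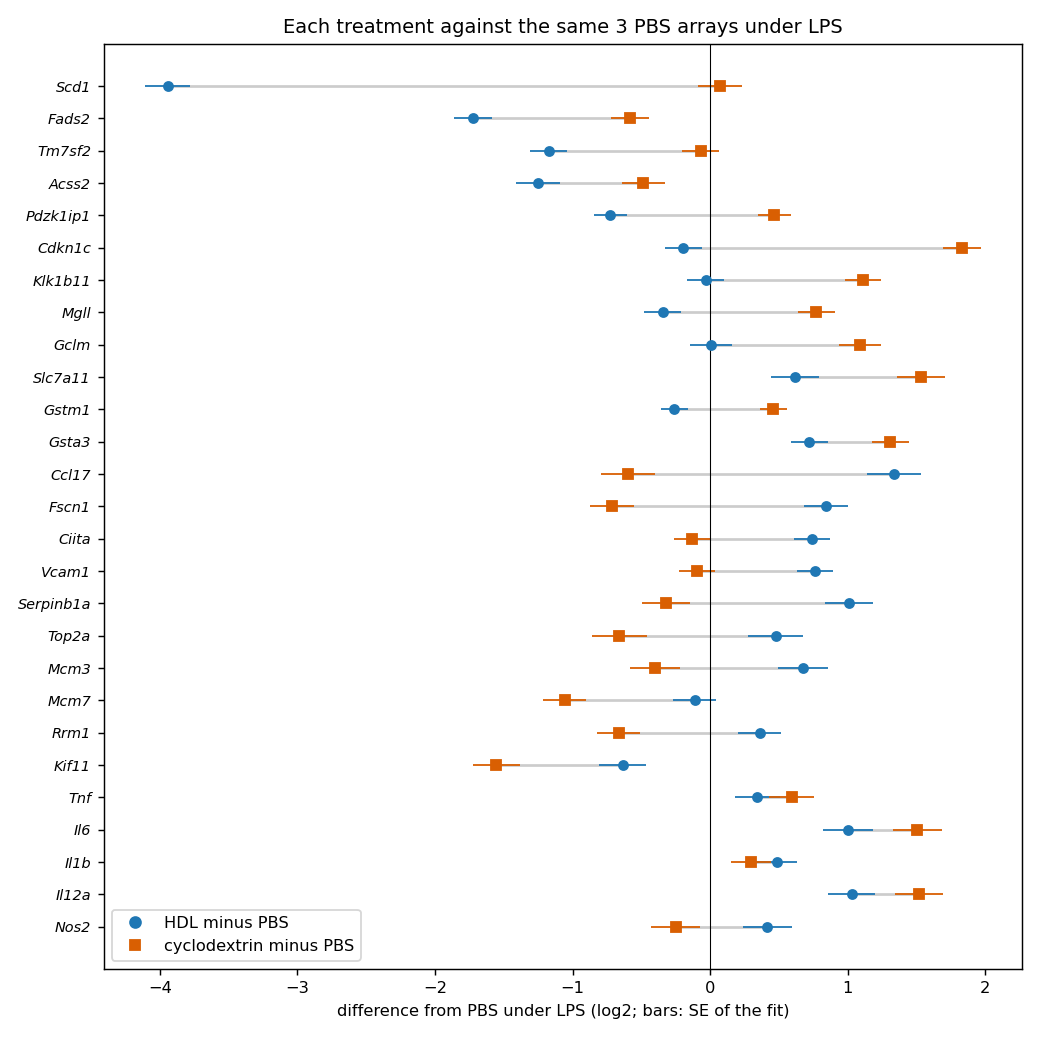
Differences from the 3 PBS arrays with LPS (horizontal axis, log2, bars 1 SE of the fit) for 27 of the genes described, after HDL (blue circles) and after cyclodextrin (orange squares), which share those PBS arrays. For Scd1 the HDL value is -3.94 and the cyclodextrin value 0.07, for Cdkn1c they are -0.19 and 1.83, and for Ccl17 they are 1.34 and -0.60.

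Among the other genes with the largest differences, several have known roles. Pdzk1ip1, a small membrane protein that binds PDZ domains, read 8.92, 8.70 and 9.09 after HDL and 10.01, 10.19 and 10.09 after cyclodextrin. It was 1.19 ± 0.12 higher (2.29-fold, adjusted p = 0.0003), with 0.47 for cyclodextrin and -0.73 for HDL against PBS (adjusted p = 0.0454 and 0.0132). Mgll, the lipase that splits monoacylglycerols, read 6.57, 6.55 and 6.72 after HDL and 7.81, 7.70 and 7.67 after cyclodextrin. It was 1.12 ± 0.14 higher (adjusted p = 0.00102), while its other probes gave 0.45 and 0.65 and did not pass. Il19, a cytokine of the interleukin 10 family that LPS raised by 2.99, was 1.03 ± 0.14 higher (adjusted p = 0.00231). Foxa1, a transcription factor of epithelial cells, was above background on all cyclodextrin arrays, at 5.42, 5.91 and 6.39, and on no HDL or PBS array, so that it was measured at all only through the group where it is high. It was at least 1.52-fold higher. The fitted difference was 1.19 (adjusted p = 0.00592, limma), and the fit on the 6 arrays alone ended the call (0.0739).

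Klk1b11, a kallikrein of a family of close copies, was 1.14 ± 0.13 higher (adjusted p = 0.000737), while its second probe gave 0.29 and did not pass. The rest of the 15 most higher genes, Arfgef3, Gm26588, 1700003F12Rik, Lrrc27 and Mef2d, ranged from 0.98 to 1.09, and Gm26588 was above background on 1 HDL array. The second probe of Arfgef3 gave 0.32 and did not pass. The calls of 1700003F12Rik and Mef2d were lost on leaving out single arrays: the first without HDL array 17 or 18 or cyclodextrin array 23 or 24 (adjusted p up to 0.123), and the second without any 1 HDL array or cyclodextrin array 23 or 24 (up to 0.13). Mef2d encodes a transcription factor of muscle, neurons and immune cells.

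On the lower side, Serpinb1a, an inhibitor of neutrophil proteases, read 7.22, 6.65 and 7.06 after HDL and 5.64, 5.30 and 6.00 after cyclodextrin, where 2 of 3 arrays were above background. It differed by -1.33 ± 0.18 (2.51-fold, adjusted p = 0.00212), with 1.01 for HDL and -0.32 for cyclodextrin against PBS (adjusted p = 0.0168 and 0.36). Col4a5, a basement membrane collagen chain, read 6.93, 7.05 and 6.54 after HDL and 5.63, 5.51 and 5.79 after cyclodextrin. It differed by -1.20 ± 0.14 (adjusted p = 0.000829), while its second probe gave -0.47 and did not pass. Csta2 and Cstdc4, inhibitors of cysteine proteases that belong to a cluster of near-identical copies on chromosome 16, gave -1.23 and -1.21 with 1 of 3 cyclodextrin arrays above background for each, and their probes may read each other's RNA. The fit on the 6 arrays alone ended the Cstdc4 call (adjusted p = 0.0699). Csta2 was lost without PBS array 3, HDL array 17 or 18 or cyclodextrin array 22 or 24 (adjusted p up to 0.111).

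Ctnnd2, Gstt4, Smco4 and Dnph1 were not above background on any cyclodextrin array and were at least 1.49, 1.14, 1.53 and 1.68 times lower there. Ctnnd2, a catenin of neurons, was lost without HDL array 17 or 18 or any cyclodextrin array (adjusted p up to 0.106), and Gstt4, a glutathione transferase that was above background on 2 of 3 HDL arrays, without HDL array 16 or 17 or cyclodextrin array 23 (up to 0.0617). Wdr6 differed by -1.03 ± 0.20 (adjusted p = 0.0202) and was lost without HDL array 16 or 18 or cyclodextrin array 22 or 23 (up to 0.0834). Of the 54 genes past the threshold that are named here, 19 kept their call in every processing in which they had a value, 27 lost it on leaving out at least 1 array, and none turned its direction. With only the 6 arrays in the fit, 21 of the 54 kept their call. With no detection filter the calls of Slc7a11, Acss2, Gsta3, Birc5, Ch25h, Adora3, Mgl2, Wdr6, Gstt4, Csta2, Ctnnd2, Mef2d, 1700003F12Rik, Batf3, Dcn and Pf4 ended. With median scaling those of Kif11, Kif18b, Cenpn, Rel, Ch25h, Csta2, Ctnnd2, Batf3, Dcn and Pf4 ended, and with the mean of all probes those of Vcam1, Gstm1, Pgk1, Kif18b, Mgl2 and Batf3. Array weights ended those of Gsta3, Mef2d and 1700003F12Rik, and Cenpn and Batf3 were also lost without background correction. Among those 19, Scd1, Mgll, Gclm, Ccl17, Serpinb1a, Pclaf and Dnph1 had no value without the values placed from other arrays. The other genes that kept their call included Cdkn1c, Fads2, Tm7sf2, Il19, Fscn1 and Col4a5.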

How the data were processed

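Total RNA of 12 macrophage samples was read on 1-colour Illumina arrays of 45281 probes, with GenomeStudio per the submitters' processing notes. The authors deposited non-normalized signals with detection p-values, and processed signals whose normalization the labels do not state. Most decimal marks were missing from both deposited tables. Of 543372 deposited signal values, 2.02% had kept their point. The rest were placed by number of digits (2.18%), by detection p (74.3%), by the curve of the array (20.6%) or from other arrays (0.887%). Of 5133 known values hidden as a check, 0 were placed wrong, but the placing rule had been adjusted on that check. All hidden values had a detection p of 0, and 681 of them were placed by detection p. The check therefore did not cover the placing of values with a detection p above 0. In PBS without LPS, 1 value stood about 10-fold from its replicates.

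Signals were background corrected and quantile normalized by neqc (with detection p-values standing for control probes, offset 16) in limma 3.58.1 under R 4.3.3. The 18364 probes with detection p under 0.05 on at least 3 of 12 arrays were fitted with lmFit and eBayes over 4 groups, with p-values adjusted over those probes. In the platform annotation 34885 probes had 1 gene symbol, 18 several and 10378 none. Each gene stands by its brightest passing probe. Of 202 genes past the threshold 69 had several passing probes, which all passed alike in 10, and another probe had the opposite sign in 14. A fold against a group not above background is a lower bound, set against the lowest detected signal of each array. The adjusted p of such a gene is that of its fitted difference, which uses signals below background, and does not test the bound. The number of arrays limits the precision. The fit was tested on simulated data.

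Named genes are the 15 largest differences in each direction, up to 4 per list and a fixed set. Members and lists were chosen with earlier results of these data known. Promoters are those of RefSeq, GRCm38.p6, at the first listed start.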

Additional observations from a re-analysis of the deposited data

How the results depend on the processing

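Among the counts, 202 genes (92 higher, 110 lower) became 310 (141 and 169) without background correction, and with the authors' processed values 139 were higher. Lower genes numbered 72 with no detection filter, 170 with the mean of all probes of a gene and 172 with array weights. A fit on only the 6 arrays gave 41 genes (23 higher, 18 lower, 39 of the 41 shared with the 202) and 60 probes in place of 338. With median scaling in place of quantile normalization the split was 106 higher and 85 lower. Leaving out 1 array gave 73 to 268 genes, 33 to 117 higher, 40 to 151 lower and 116 to 442 probes: 73 genes without HDL array 18, 102 without HDL array 16, 97 without cyclodextrin array 23 and 106 without cyclodextrin array 24. The share of detected probes differed by -2.15 to -1.19 percentage points. The highest count, 268 genes, came without PBS array 1, which is not part of the comparison. The cause of these shifts was not tested. Of 17 named genes short of the threshold, 5 passed in some processing (Nos2, Irf1, Insig1, Prkcb and Il6). No paired analysis was possible because the replicate numbers in the labels do not tell the arrays of a group apart. The chip as a block was not run because the headers used here give no chip. Signals near background limit Ciita, Kif11, Foxa1 and the other genes given as bounds.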
